A study of Mus musculus with 4 samples.

Results

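Transforming growth factor-beta (TGF-β) handling by immune cells was described through 10 genes of the 32285 measured: the ligand Tgfb1, the activators Lrrc32, Itgav and Itgb8, the receptors Tgfbr1 and Tgfbr2, the signal carrier Smad3, the inhibitor Smad7, the co-repressor Skil, and Itgae, which encodes CD103. The genes were taken by symbol, and all 10 had a row with UMIs (unique molecular identifiers, one per captured RNA molecule). Cells came from 10 intradermal 20967 melanomas, a line with the alleles Nras+LSL-G12D and Tyr::CreERT2+/o on the C57BL/6 strain, implanted into wild type C57BL/6 hosts. Control tumors (n = 5, cetraben cream) and tumors given the topical glucocorticoid (GC) clobetasol propionate (n = 5) were taken 4 days after treatment, live CD45+ cells were sorted, and a hashtag antibody marked the tumor of each cell. The line is a single one, and since the sort removed melanoma cells, Lrrc32 and Tgfb1 of the tumor cells themselves were not measured here. Each condition was 1 droplet channel, so treatment and channel cannot be told apart, and no barcode was shared between them.

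TGF-β1 is secreted in a latent form, wrapped in its own propeptide. GARP, the product of Lrrc32, docks this latent complex on the cell surface, and the integrin of the αv (Itgav) and β8 (Itgb8) chains frees the active cytokine. The active ligand binds the type II receptor (Tgfbr2), which switches on the type I receptor (Tgfbr1) and, through it, Smad3, while Smad7 and the Skil product SnoN restrain the signal. In T cells TGF-β is known for raising Itgae, whose product CD103 pairs with the β7 chain and holds lymphocytes against E-cadherin on epithelia.

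The control channel was loaded with 17100 cells and the GC channel with 3500, so the numbers recovered do not measure loss of cells. Any effect of this difference in loading on the values was not tested. The control channel gave 3803 cells (347 to 1250 per tumor, median 7440 UMIs per cell) and the GC channel 305 cells (18 to 111 per tumor, median 9163). The deposited labels named 16 cell types, of which CD8 4 had no cell after GC. Tregs numbered 486 in controls and 14 after GC, spread over the 5 GC tumors as 1, 2, 5, 1 and 5. CD8 T cells, clusters CD8 1 to CD8 3 together, numbered 880 and 107. The Treg label was checked against Foxp3, the transcription factor that defines regulatory T cells, which had a UMI in 77.6% of control Tregs (median 6169 UMIs) against 1.52% of tumor-associated macrophages (TAMs, median 12883 UMIs). All 5 Treg markers checked were detected in the Tregs of each condition.

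In control tumors, Tregs stood first of the 16 cell types for 5 of the 10 genes: Lrrc32, Itgav, Itgb8, Smad7 and Itgae. Levels are UMIs per 10000 UMIs of a cell, averaged over the cells of a tumor and then over tumors with at least 5 cells of the type, and the order of cell types is a description with no test. The ligand and the receptors had other leading cell types, with Tgfb1 highest in NK cells, Tgfbr1 in Monocytes 3, and Tgfbr2, together with Skil, in eosinophils. Smad3 was highest in γδT cells. These other leads depended on the setting. With at least 10 cells per tumor, Monocytes 2 led for Tgfb1, TAMs for Tgfbr1 and NK cells for Smad3. By the mean of the log values, Monocytes 2 led for Tgfb1, γδT cells for Tgfbr2, NK cells for Smad3 and DC 1 for Skil. The 5 Treg leads were kept in both settings. The labels were made by clustering these same cells, so the members may have contributed to them.

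**Figure D1:**
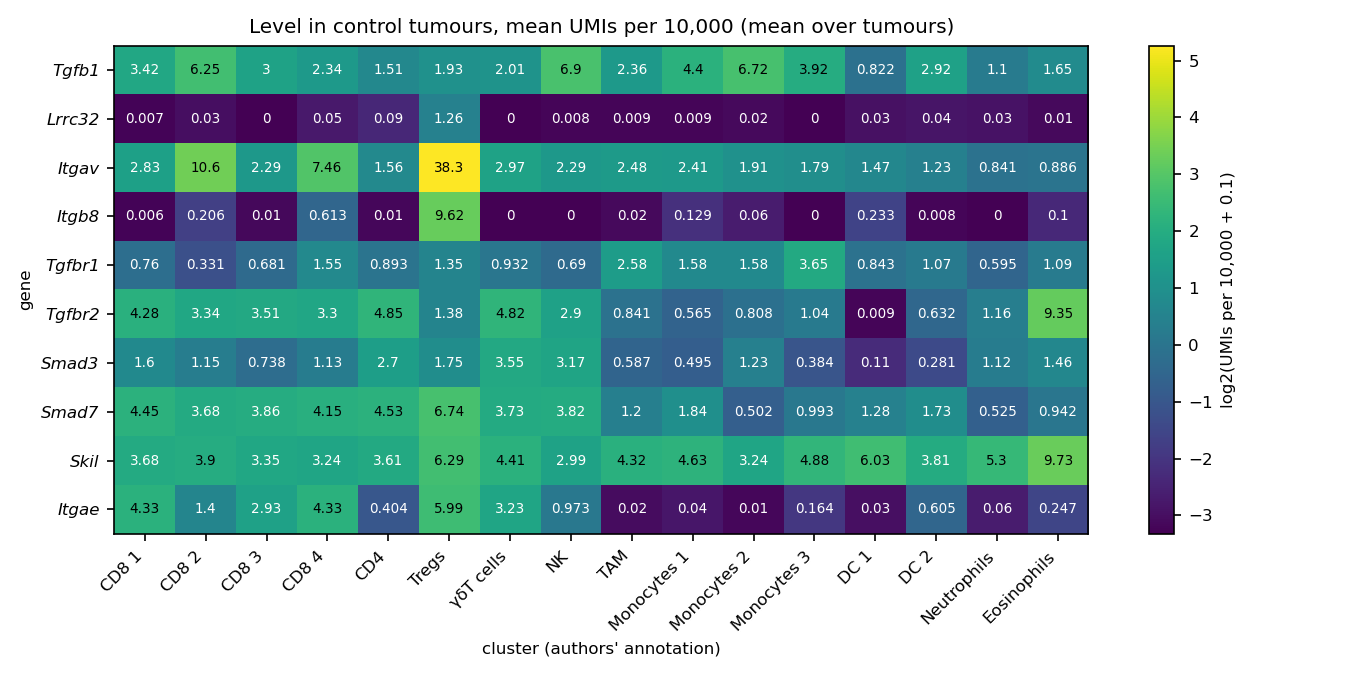
Mean level of each of the 10 genes in each of the 16 cell types of control tumors, with the level printed in each cell and colored as log2(UMIs per 10000 + 0.1). Tregs hold the highest level of Lrrc32, Itgav, Itgb8, Smad7 and Itgae, while Tgfb1 is spread over lymphoid and myeloid cell types.

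Tgfb1 (ENSMUSG00000002603, GRCm38 chromosome 7, 25687002 to 25705077, plus strand) was detected in all 16 cell types. Its control level was 6.90 ± 2.36 UMIs per 10000 (SD, n = 5 tumors) in NK cells, 6.72 ± 0.715 in Monocytes 2 and 6.25 ± 1.57 in CD8 2. The ranges of these leading types overlapped, NK cells spanning 2.86 to 8.70. Tregs lay far below, at 1.93 ± 0.171, and neutrophils and DC 1 were at the end of the order with 1.10 ± 0.334 and 0.822 ± 0.376. By where the molecules were, TAMs and monocytes together held 49.3% of the 10030 Tgfb1 UMIs of the control channel, the CD8 clusters 26.9% and Tregs 6.66%. TAMs and monocytes were 30.8% of the control cells and the CD8 clusters 23.9%. A UMI share also grows with depth, and the median cell had 12410 to 13051 UMIs in TAMs and monocytes against 6169 in Tregs. These shares were not set against the share of all RNA. Tregs were 12.8% of the control cells, so the cell type with the highest levels of the activating machinery held a smaller share of the ligand's RNA than of the cells, with depth not accounted for.

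Lrrc32 (ENSMUSG00000090958, chromosome 7, 98489283 to 98502181, plus strand) was a Treg gene in this infiltrate. Its level in control Tregs was 1.26 ± 0.422 UMIs per 10000, and the next cell type, CD4 T cells, stood at 0.0949 ± 0.125. The lowest Treg value over tumors, 0.920, was above the highest CD4 value, 0.313. Tregs held 86.2% of the 428 Lrrc32 UMIs of controls and all 12 of the GC channel. A UMI was found in 35.8% of control Tregs and in 0.692% of TAMs, whose median cell had 12883 UMIs against 6169. These shares count cells with a captured molecule, and at this level a cell without one cannot be called negative.

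Itgb8 (chromosome 12, 119158022 to 119238802, minus strand) was held by Tregs to a like degree. Control Tregs had 9.88, 10.0, 9.68, 9.20 and 9.32 UMIs per 10000 in tumors 1 to 5, a mean of 9.62 ± 0.351. The neighbour in the order, CD8 4, had 0.613 ± 0.583 in the 2 tumors with enough of its cells, and no Itgb8 UMI was seen in control γδT cells, NK cells, Monocytes 3 or neutrophils. CD8 4 was a cycling cluster in which Mki67, a proliferation marker, was found in 93.3% of 30 cells, Cd8a in 73.3% and Foxp3 in 23.3%. Its Treg marker sum was 35.1 UMIs per 10000 against 154.2 in Tregs, and the part of Treg RNA in its Itgb8 value was not tested. Tregs held 93.9% of the 3270 control Itgb8 UMIs.

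Itgav (chromosome 2, 83724397 to 83806916, plus strand), whose αv chain pairs with several β chains, was broader. Control Tregs had 38.3 ± 4.37 UMIs per 10000, with tumors between 33.4 and 43.6, followed by CD8 2 with 10.6 ± 3.06 and CD8 4 with 7.46 ± 2.91. The Treg range did not meet that of any other cell type. Below these, γδT cells (2.97 ± 1.04), CD8 1 (2.83 ± 0.242) and TAMs (2.48 ± 0.346) lay within each other's spread, and eosinophils and neutrophils closed the order at 0.886 ± 0.270 and 0.841 ± 0.464. Tregs held 58.5% of the 20761 control Itgav UMIs. Gm13684 (chromosome 2, 83737782 to 83759865, minus strand) lies inside Itgav on the other strand, and with 762 UMIs in all cells against 23918 of Itgav it is reported as uncertain.

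Both chains of the integrin were often caught in the same Treg. Of 486 control Tregs, 94.7% had an Itgav UMI, 68.3% an Itgb8 UMI and 64.8% both (exact 95% binomial interval 60.4 to 69.1, counting error only). Of the 14 Tregs after GC, 14 had both. For the anchor and its cargo, 35.8% of control Tregs had Lrrc32, 53.5% Tgfb1 and 21.4% both. In TAMs 71.5% of control cells had Itgav but 1.66% had Itgb8, and in CD8 2 the figures were 85.9% and 3.35%. Itgav and Itgb8 were caught together in 1.52% of control TAMs.

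The start-site windows of the integrin pair are shown as the pair of chains of the αvβ8 integrin, both highest in Tregs. They hold the 250 bases before each RefSeq start (GRCm38.p6), and capitals mark the SMAD motif CAGACA or its reverse complement TGTCTG.
Itgav, chr2:83724147-83724396, plus strand: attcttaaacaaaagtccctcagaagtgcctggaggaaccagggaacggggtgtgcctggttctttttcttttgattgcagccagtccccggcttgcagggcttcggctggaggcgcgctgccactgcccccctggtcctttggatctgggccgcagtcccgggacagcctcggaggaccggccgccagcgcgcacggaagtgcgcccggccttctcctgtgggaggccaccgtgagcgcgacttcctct
Itgb8, chr12:119238277-119238526, minus strand: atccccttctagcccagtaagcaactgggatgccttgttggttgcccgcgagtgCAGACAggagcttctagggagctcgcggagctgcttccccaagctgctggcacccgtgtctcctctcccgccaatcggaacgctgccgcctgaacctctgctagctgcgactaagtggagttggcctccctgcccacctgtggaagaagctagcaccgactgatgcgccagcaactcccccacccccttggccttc
The SMAD motif occurs in 17.1% and the glucocorticoid receptor half-site AGAACA, or TGTTCT, in 16.1% of the 32817 windows of this length, both strands counted. Itgb8 had 1 SMAD motif and no half-site, and Itgav had neither. The Itgb8 window lies inside the gene by the coordinates given above (119158022 to 119238802), whose start is not the RefSeq start used here. A match is a description of the letters and not a binding site, and RefSeq windows were matched for 6 of the 10 genes.

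The receptors divided the cell types differently. Tgfbr2, the ligand-binding chain, was highest in eosinophils at 9.35 ± 1.02 UMIs per 10000, then in CD4 (4.85 ± 0.737), γδT (4.82 ± 1.82) and CD8 1 cells (4.28 ± 0.772), whose ranges overlapped. TAMs had 0.841 and DC 1 0.00874. Eosinophil libraries were shallow (median 873.5 UMIs), so single molecules weigh more there. Tgfbr1, the signaling chain, had another order, with 3.65 ± 0.494 in Monocytes 3 (3 tumors), 2.58 ± 0.369 in TAMs and 0.331 ± 0.138 in CD8 2, the lowest.

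Smad3, which carries the signal to the nucleus, was highest in γδT (3.55 ± 1.39), NK (3.17 ± 0.958) and CD4 cells (2.70 ± 0.242), whose ranges overlapped, and lowest in DC 1 (0.110 ± 0.0573). Smad7, an inhibitor that TGF-β itself is known to raise, was highest in Tregs at 6.74 ± 0.581, with CD4 (4.53 ± 1.36) and CD8 1 cells (4.45 ± 0.669) next and the Treg and CD4 ranges overlapping. Monocytes 2 were lowest with 0.502 ± 0.245. Skil was the most even of the genes, from 9.73 ± 1.42 in eosinophils and 6.29 ± 0.854 in Tregs down to 2.99 ± 1.11 in NK cells.

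Itgae (chromosome 11, 73090583 to 73147446, plus strand) was highest in lymphoid cell types, though not in all of them. Control Tregs had 5.99 ± 0.754 UMIs per 10000, CD8 4 cells 4.33 ± 0.759 (2 tumors) and CD8 1 cells 4.33 ± 0.851. Then came γδT cells with 3.23 ± 1.20 and CD8 3 cells with 2.93 ± 1.05, and the ranges of Tregs and CD8 1 overlapped. CD8 2, the cluster with the highest Itgav among CD8 T cells, had the lowest Itgae of the 4 CD8 clusters, 1.40 ± 0.295. NK cells had 0.973 ± 0.865 and CD4 cells 0.404 ± 0.169. In myeloid types the level was at most 0.605, in DC 2, which was above that of CD4 cells, and TAMs had 0.0211. The partner chain Itgb7 was caught in the same cell as Itgae in 65.8% of control Tregs and 48.7% of CD8 1 cells. CD8 clusters held 46.1% and Tregs 42.9% of the 4529 control Itgae UMIs.

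The genes with the most similar profile over the 16 control cell types were sought among 9377 genes by Pearson's r, as a description in which the cell types share libraries and depth. Lrrc32 was most like Ankrd55 (r = 0.99), Foxp3 (0.95) and Izumo1r (0.94), and Itgb8 most like Areg (0.97), Ky (0.96) and Nckap5 (0.95). Itgav had Tff1 (0.92), Camta1 (0.88) and Tnfrsf8 (0.87). Tgfb1, spread over many types, had no neighbour above 0.82 (Wdfy1, then Prrc1 and Lman2 at 0.80). Tgfbr1 was most like Tlr1 (0.91), Cybc1 (0.89) and Bad (0.88), and Tgfbr2 most like Ndrg3 (0.92), Def6 (0.91) and Tmem71 (0.91). Smad3 had Jak1 (0.92), Rasa3 (0.89) and Celf2 (0.89), Smad7 had Zfp148 (0.95), Nfrkb (0.94) and Fam185a (0.94), and Skil had Abcc1 (0.92), Fbxo11 (0.85) and Ccr3 (0.81). Itgae was most like Prpf18 (0.91), Gstp3 (0.91) and S1pr4 (0.90).

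The next question was whether GC moved these genes within CD8 T cells, the cells taken as receivers of TGF-β. Itgav rose 3.75-fold and Itgae fell by 1.0 on the log2 scale, and no other member passed the test. Changes are log2(mean UMIs per 10000 + 0.1), GC minus control, tested by limma over 6158 genes in the 5 control and 3 GC tumors that had 10 or more such cells. Of these genes 5.02% passed at an adjusted p of 0.05 (2.27% higher, 2.74% lower), against 2 of the 8 members tested. Lrrc32 and Itgb8 were under the minimum mean of 0.2 in CD8 T cells. The mix of clusters differed between the channels, CD8 2 being 269 of 880 cells in controls and 46 of 107 after GC, so values within a cluster are given beside those of the class.

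Itgav in CD8 T cells was 6.51, 5.80, 5.39, 3.40 and 5.06 UMIs per 10000 in control tumors 1 to 5. After GC it was 20.8, 17.7, 22.0, 26.1 and 19.1, where tumors 1 and 4 had 7 and 9 cells and were left out of the fit. The groups did not overlap with or without those tumors, and over all genes tested 5.70% had every fitted GC tumor above, and 9.55% below, every control. The log2 change was 1.91 ± 0.18 (SE), with a limma adjusted p of 0.000261. The rise was seen in each of the 2 large clusters taken alone, by 1.70 in CD8 1 (limma adjusted p = 3.29e-05) and 1.72 in CD8 2 (adjusted p = 0.00952). Each of these fits held 5 control and 2 GC tumors, and 395 of 6190 and 129 of 6072 genes passed. In CD8 1 the controls had 2.51 to 3.18 and the GC tumors 21.2, 3.38, 9.15, 8.15 and 9.69, so that tumor 2 lay just above the controls. GC tumors 1, 2 and 4 had 4, 6 and 5 CD8 1 cells and were outside that fit.

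Depth differed between the channels, so the cells were also thinned to 1000 UMIs each. The share of CD8 1 cells with an Itgav UMI was then 17.1% in controls and 43.4% after GC, and that of CD8 2 cells 49.4% and 80.4%. In Tregs the thinned share was 83.0% and 78.6%. Gm13684, the gene inside Itgav, moved with it in CD8 T cells (0.121 to 0.962 UMIs per 10000, log2 change 2.28 ± 0.24). How far the pair shared reads was not tested.

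**Figure D2:**
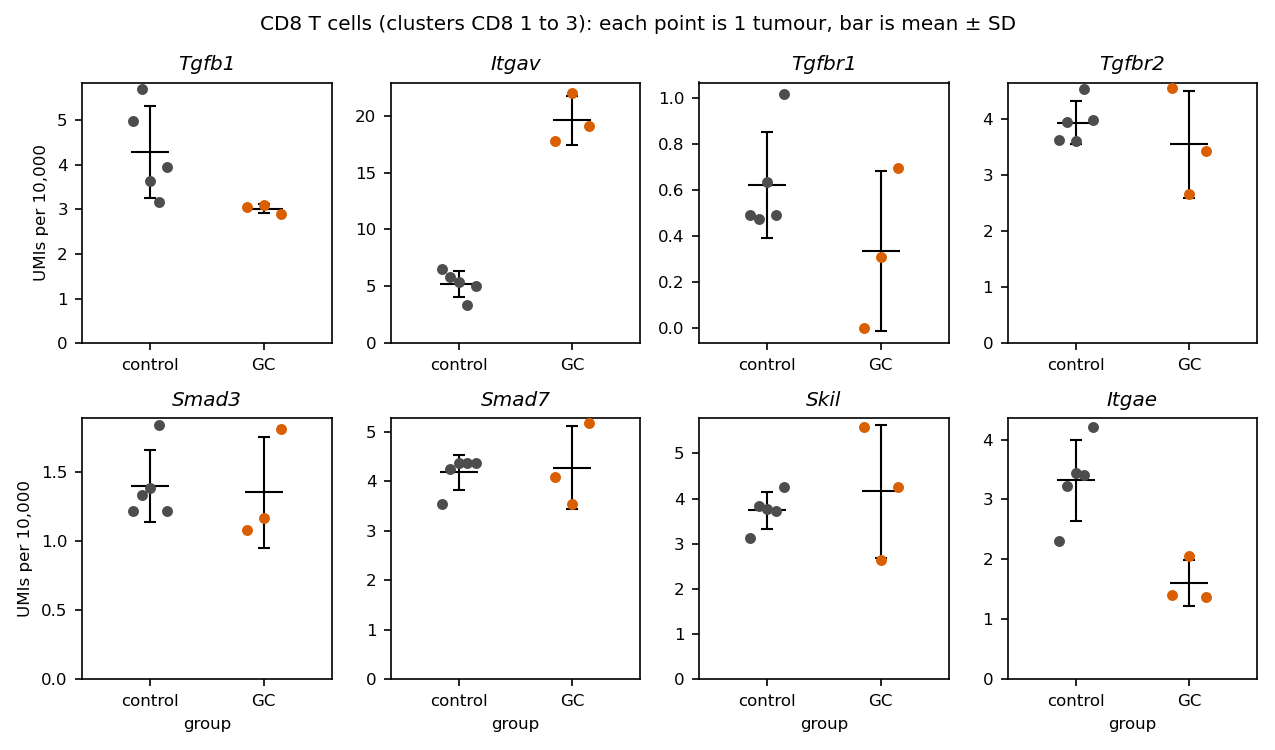
Level of the members in CD8 T cells of each tumor, in UMIs per 10000, control against GC, each point 1 tumor with at least 10 such cells and the bar the mean ± SD. Itgav is higher in the 3 GC tumors than in any control and Itgae is lower, and of the other genes Tgfb1 lies lower without passing the test.

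Itgae in CD8 T cells was 2.31, 3.23, 3.45, 3.42 and 4.21 UMIs per 10000 in controls and 1.90, 1.40, 2.05, 1.29 and 1.36 after GC. No GC tumor reached the lowest control. The log2 change was -1.0 ± 0.19 (limma adjusted p = 0.0128). It differed with the cluster looked at, being -1.45 in CD8 2 (adjusted p = 0.0124) and -0.56 in CD8 1, where it did not pass (adjusted p = 0.152). Both of these fits held 5 control and 2 GC tumors. After thinning, 29.9% of control and 28.3% of GC CD8 1 cells had an Itgae UMI, against 11.5% and 4.35% in CD8 2.

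The remaining members in CD8 T cells were these. Tgfb1 had 4.97, 5.70, 3.64, 3.15 and 3.94 in controls and 3.91, 3.06, 3.09, 3.59 and 2.90 after GC, which overlapped over all tumors. Over the fitted tumors, which did not overlap, the change of -0.46 ± 0.18 missed the threshold (limma adjusted p = 0.162). Given equal weight to CD8 1 and CD8 2, an alternative chosen after seeing the data, the change was -0.69 (adjusted p = 0.0278). That fit held 5 control and 2 GC tumors. Tgfbr1 was -1.13 ± 0.52 (adjusted p = 0.235) at a level under 1.02 in every control. Tgfbr2 (-0.17), Smad3 (-0.06), Smad7 (0.02) and Skil (0.10) had adjusted p-values of 0.566 to 0.957. The 95% interval of Smad7, -0.29 to 0.33, bounds what could have been missed. Macrophage markers summed to 0.63 to 1.16 UMIs per 10000 in control and 0.09 to 0.27 in GC CD8 T cells (6 of 6 and 5 of 6 markers detected, Mrc1 at 0 after GC). Monocyte markers summed to 12.4 to 18.4 and 4.95 to 5.68 (5 of 5 and 4 of 5, Vcan at 0), a list whose Ly6c2 and Ccr2 T cells also express. Treg markers summed to 15.7 to 17.7 and 17.9 to 21.2, with Foxp3 at 0 after GC. The part of these markers' cells in the changes was not tested beyond the macrophage list. Without the cells carrying such UMIs the changes were 2.16 for Itgav and -1.08 for Itgae (adjusted p = 0.0088).

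Of 48 other genes of the TGF-β pathway, 23 could be tested in CD8 T cells, and their median change was -0.17 against -0.09 over all genes. Of these, 17.4% passed, against 5.02% of all genes. Tgif1, a co-repressor of SMADs, rose by 0.85. Tgfbi (-2.53), a matrix protein named for its induction by TGF-β, Itgb1 (-1.16), the β1 chain that can pair with αv, and Cdh1 (-1.16), which encodes E-cadherin, the ligand of CD103, fell. This list was drawn up with earlier results of these data known.

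**Figure D3:**
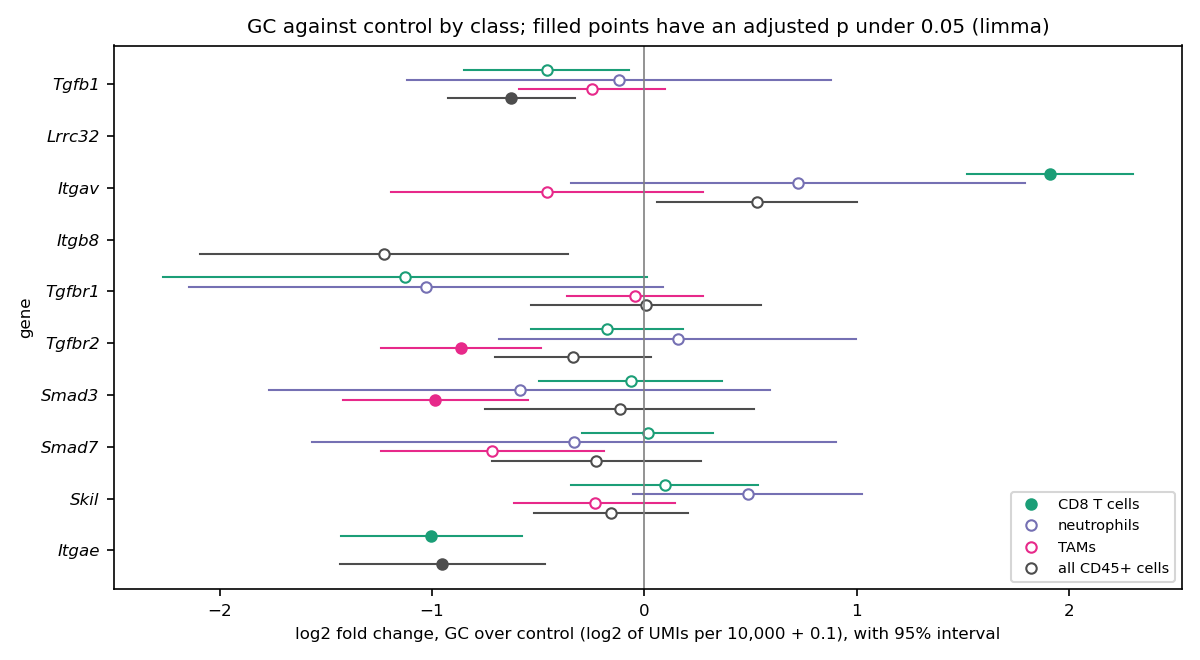
Log2 change of each member, GC minus control, with its 95% interval from limma, in CD8 T cells, neutrophils, TAMs and all CD45+ cells. Itgav lies to the right of zero in CD8 T cells with an interval that does not meet that of TAMs.

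In TAMs, Tgfbr2 and Smad3 were lower after GC, and the others did not pass. The comparison had 5 control and 2 GC tumors, and 21.2% of 5988 genes passed by limma (6.86% higher, 14.3% lower), against 2 of 7 members. Tgfbr2 was 0.883, 0.981, 0.772, 0.740 and 0.827 UMIs per 10000 in controls and 0.349 and 0.491 after GC, a change of -0.86 ± 0.17 (adjusted p = 0.00588). The Tgfbr2 change did not pass by edgeR (-0.77, adjusted p = 0.0997) or DESeq2 (-0.75, adjusted p = 0.138). Smad3 was 0.534, 0.492, 0.694, 0.645 and 0.573 against 0.313 and 0.189, a change of -0.98 ± 0.20 (adjusted p = 0.00602). For both genes no GC tumor reached a control, as for 23.6% of all genes tested in that direction. By edgeR, 11.2% of genes passed. In the TAMs of these tumors, the Treg marker sum spanned 0.533 to 1.06 in the control group and 0.120 to 0.379 in the GC group (5 of 5 and 3 of 5 detected, Foxp3 and Tnfrsf4 at 0), and neutrophil markers to 0.896 to 1.18 and 1.93 to 3.63 (5 of 5 and 4 of 5, Retnlg at 0). Their part in the changes was not tested. Smad7 was -0.72 ± 0.24 (adjusted p = 0.0539).

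Itgav did not show in TAMs what it showed in CD8 T cells. Controls had 2.25, 2.64, 1.98, 2.78 and 2.72 and the GC tumors 0.993 and 3.06, a change of -0.46 ± 0.33 (limma adjusted p = 0.350). The difference between the changes in the 2 cell classes, TAMs minus CD8 T cells, was -2.37 ± 0.51 (limma with the tumor as a block, adjusted p = 0.0203, a test that 0.760% of 3421 genes passed). No other member passed it. For neutrophils minus CD8 T cells the Itgav difference was -1.19 (limma adjusted p = 0.167). Of 32 other pathway genes tested in TAMs, 5 rose and 5 fell, 31.25% against 21.2% of all genes. Id1 (1.92) and Id2 (1.32), inhibitors of helix-loop-helix factors, and Itgb7 (0.94), the partner chain of CD103, rose. Ldlrad4 (-0.85) and Smurf1 (-0.83), both restrainers of the receptor pathway, fell.

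In neutrophils none of 7 members passed by limma or edgeR in 5 control and 2 GC tumors, where 4.83% of 4411 genes passed by limma and 4.60% by edgeR. The largest change was that of Tgfbr1, -1.03 (limma adjusted p = 0.312). Itgav was 0.72 (adjusted p = 0.493). Skil, which neutrophils hold at 5.30 ± 0.88, was 0.49 (adjusted p = 0.328). Of 21 other pathway genes Junb fell by 0.65.

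**Figure D4:**
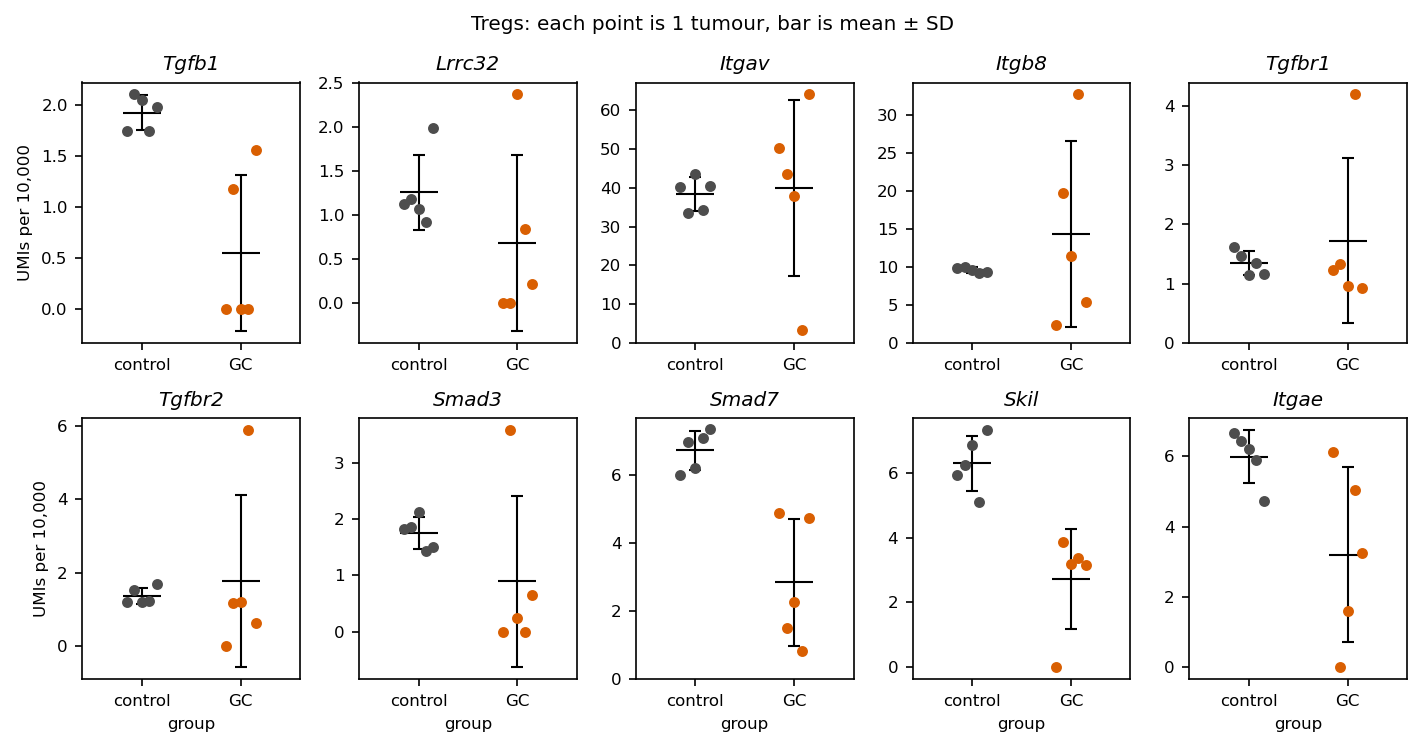
Level of the members in the Tregs of each tumor, in UMIs per 10000, each point 1 tumor, each GC point resting on 1 to 5 cells and the bar the mean ± SD. Tgfb1, Smad7 and Skil of the GC tumors all lie below the controls, while Itgav and Itgb8 of the GC tumors lie on both sides.

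In Tregs, Tgfb1, Smad7 and Skil were lower in every GC tumor than in any control, while Itgav and Itgb8 did not pass. How many of all genes separate in this way was not computed for Tregs. The GC values rest on 1 to 5 cells per tumor, against 34 to 134 in controls. The 14 GC Tregs allow an exact two-sided permutation test over 5 and 5 tumors, whose smallest p is 0.00794. Only 2 GC tumors had at least 3 Tregs, and in that setting the smallest p is 0.0476. The p-values are unadjusted over the 10 members, and all members but Lrrc32 were tested after seeing the data. Tgfb1 was 1.75, 2.11, 2.05, 1.75 and 1.98 UMIs per 10000 in controls and 0, 1.18, 0, 0 and 1.57 after GC (log2 change -2.79, exact permutation p = 0.00794). The GC values rest on 9 UMIs, and the pooled ratio was 0.343 (0.156 to 0.655, counting error only). Leaving out any 1 control tumor raised this p to 0.0556, and without GC tumor 5 the change was -3.42 (exact permutation p = 0.00794).

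Smad7 in Tregs was 6.02, 6.99, 6.23, 7.1 and 7.36 in controls and 4.90, 1.5, 2.27, 0.839 and 4.74 after GC (-1.48, exact permutation p = 0.00794). Skil was 5.94, 6.23, 6.86, 5.10 and 7.32 against 0, 3.86, 3.19, 3.36 and 3.16 (-1.89, exact permutation p = 0.00794). For neither gene did the groups overlap, again without a share over all genes beside it. The Skil value of 0 came from the 1 Treg of GC tumor 1, and without that tumor the Skil change was -0.87 (exact permutation p = 0.00794). Over all 14 GC Tregs, that cell included, the pooled Skil ratio was 0.525 (0.372 to 0.721, counting error only). Itgae was 6.66, 6.45, 6.20, 5.90 and 4.74 against 6.13, 0, 1.59, 5.04 and 3.24, which overlapped (-1.76, exact permutation p = 0.0556). On the linear scale Itgae passed (exact permutation p = 0.0476). With at least 3 Tregs its log2 change was -1.35 (exact permutation p = 0.0476, the smallest possible with 2 GC tumors). Without GC tumor 2, whose 2 Tregs had no Itgae UMI, the change was -0.72 (exact permutation p = 0.0714). The Smad3 change was -2.22 (exact permutation p = 0.0556). With at least 3 Tregs it was -1.86 (exact permutation p = 0.0476, again the smallest possible there). Without GC tumor 2 the Smad3 change was -3.03 (exact permutation p = 0.00794), and on the linear scale it did not pass (exact permutation p = 0.286).

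The activators in Tregs did not separate. Lrrc32 was 1.13, 1.18, 1.07, 0.920 and 1.99 in controls and 0, 0, 2.37, 0.839 and 0.218 after GC (-1.81, exact permutation p = 0.103). GC tumor 3 alone lay above all controls, and without it the change was -2.49 (exact permutation p = 0.00794). With the 2 GC tumors of at least 3 Tregs it was -0.57 (exact permutation p = 0.667), and the pooled ratio was 0.828 (0.424 to 1.46, counting error only). Itgb8 ranged from 2.45 to 32.7 in the GC tumors around the narrow control range (0.06, exact permutation p = 0.905), and Itgav from 3.36 to 64.0 (-0.43, exact permutation p = 0.952). The receptors Tgfbr1 (0.10, exact permutation p = 0.944) and Tgfbr2 (-0.64, exact permutation p = 0.563) overlapped too. Without GC tumor 4, which had 1 Treg, Tgfbr2 was -1.31 (exact permutation p = 0.00794). With at least 3 Tregs, Tgfbr2 was -0.58 and Tgfbr1 -0.47 (exact permutation p = 0.0476 in each, the smallest possible with 2 GC tumors). On the linear scale Tgfbr2 was 0.40 UMIs per 10000 higher and did not pass. The Treg marker sum of GC tumors ran from 46.8 to 144.8 and that of controls from 149.4 to 160.1. Its part in the lower Tgfb1, Smad7 and Skil was not tested.

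The other cell types were not tested and are described by ratios of pooled UMIs with counting intervals. Tgfb1 in NK cells was 0.279 of the control level (0.156 to 0.464), from 15 UMIs in 4 GC cells, and in Monocytes 1 0.347 (0.255 to 0.462). In DC 2 it was 1.05 (0.759 to 1.41). The CD8 clusters, tested above as a class, differed in their pooled Tgfb1 ratios. CD8 3 had 1.85 (1.24 to 2.70), from 33 UMIs in 7 GC cells, CD8 1 0.598 (0.483 to 0.735) and CD8 2 0.668 (0.572 to 0.778). Itgav in γδT cells was 4.60 (3.34 to 6.35), from 11 cells after GC. Itgae in NK cells gave no UMI after GC against 95 in controls, where 3 UMIs in the 4 GC cells would have been 0.378 UMIs per 10000. In CD8 3, 74 of the 153 Itgav UMIs after GC came from 1 cell.

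Over all CD45+ cells of a tumor, Tgfb1 and Itgae were lower after GC. Here fewer cells of a type and less RNA per cell cannot be told apart. By limma 6.15% of 6471 genes passed (2.33% higher, 3.82% lower), against 2 of 9 members. Tgfb1 was 2.98, 3.18, 2.99, 2.54 and 2.74 UMIs per 10000 in controls and 1.67, 1.45, 2.22, 1.90 and 1.99 after GC, groups that did not overlap, as 7.26% of genes did in this direction (-0.63 ± 0.14, adjusted p = 0.0213). Itgae was 1.47, 1.87, 1.87, 1.62 and 1.68 against 1.08, 0.401, 0.870, 1.04 and 0.961 (-0.95 ± 0.22, adjusted p = 0.0292). Without any 1 control tumor neither passed, the adjusted p being 0.0526 to 0.0782 for Tgfb1 and 0.0671 to 0.0849 for Itgae. Itgav was 0.53 (adjusted p = 0.176) and Itgb8 -1.23 (adjusted p = 0.0922). In myeloid cells alone Tgfb1 was -0.96 (limma adjusted p = 0.0211). That fit held 5 control and 3 GC tumors, and 1022 of 5970 genes passed. In lymphoid cells alone Itgav was 0.62 (limma adjusted p = 0.00109) and Itgae -1.07 (limma adjusted p = 7.76e-05). There 5 control and 4 GC tumors entered, and 593 of 6231 genes passed. Lrrc32 reached the minimum mean of 0.2 in lymphoid cells through the controls, so its test is not given. All 12 of its GC UMIs were in Tregs.

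**Figure D5:**
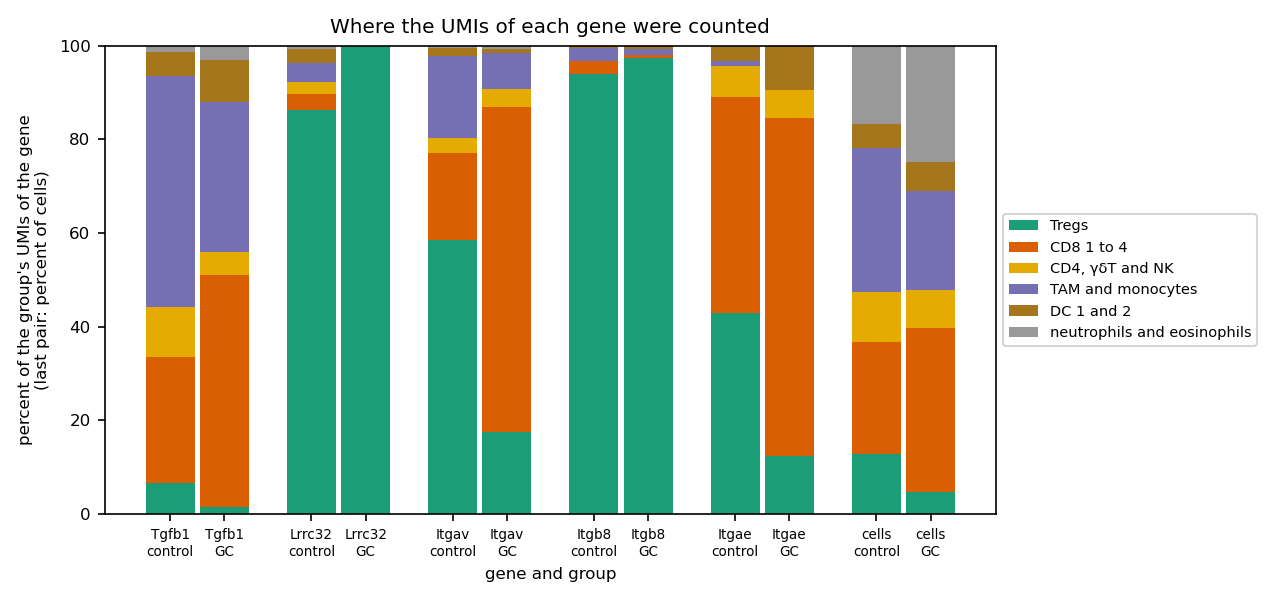
Percent of all UMIs of Tgfb1, Lrrc32, Itgav, Itgb8 and Itgae held by each group of cell types, in the control and GC channels, with the last pair of bars giving the percent of cells. Tregs hold 58.5% of Itgav UMIs in controls and 17.4% after GC, and the CD8 clusters 18.6% and 69.4%.

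The cells that held each RNA differed between the channels. Tregs went from 12.8% to 4.59% of the cells and from 58.5% to 17.4% of the Itgav UMIs, and the CD8 clusters from 18.6% to 69.4% of them. For Itgae, the CD8 share went from 46.1% to 72.1% and the Treg share from 42.9% to 12.4%. For Tgfb1, TAMs and monocytes went from 49.3% to 31.9% and the CD8 clusters from 26.9% to 49.7%. Their shares of the cells moved the same way. TAMs and monocytes went from 30.8% to 21.0% of the cells and the CD8 clusters from 23.9% to 35.1%. Itgb8 stayed with Tregs, at 93.9% and 97.4%. These shares pool the tumors of a channel and carry no test. Of 33 other pathway genes tested over all CD45+ cells, 21.2% passed, against 6.15% of all genes. Furin, a protease that cleaves the TGF-β1 propeptide, rose by 0.80 and 6 fell, among them Mmp14 (-1.67), Smurf1 (-0.88) and Ldlrad4 (-0.78).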

How the data were processed

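Droplet single-cell RNA-seq of sorted live CD45+ cells was processed by the authors with Cell Ranger 7.1.0 on mm10, introns included, and Seurat 5.0.3 in R 4.3.1, with hashtag singlets kept. The deposited values are the natural log of 1 plus UMIs per 10000 and the deposited cell table gives cell type, hashtag and, per cell, UMI counts and mitochondrial percent values. Whole UMI counts were recovered from these deposited values (tolerance 0.01). The members and lists were chosen with earlier results of these data known. Tumor means were tested with limma 3.58.1 (R 4.3.3, trend and robust, Benjamini-Hochberg over all genes with a mean of at least 0.2), and edgeR 4.0.16 and DESeq2 1.42.0 on summed UMIs were alternatives. Tumors needed 10 cells of a class, or 1 in Tregs. Hashtag numbers only name tumors. Named genes were all 10 members, up to 5 pathway genes per comparison that passed, by size, and the 3 genes most like each member. 1 gene this rule names is not reported here. The fits were tested on simulated data. Binomial intervals and those of pooled ratios cover counting error only, and limma intervals the spread between tumors.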

Additional observations from a re-analysis of the deposited data

Results flagged for a closer look

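10 of 69 groups of values had a sample far from the others by Dixon's criterion, and chance alone gives about 1 in 20. In CD8 T cells they were Smad3 in control tumor 4 (1.84 UMIs per 10000) and Smad7 in control tumor 1 (3.54). In TAMs they were Tgfb1 in control tumor 5 (2.07) and Itgae in control tumor 1 (0.0574), and over all CD45+ cells Tgfbr1 in GC tumor 1 (2.72). In Tregs they were Lrrc32 in control tumor 5 (1.99), Tgfbr1 and Tgfbr2 in GC tumor 4 (4.20 and 5.87), which had 1 Treg, Smad3 in GC tumor 2 (3.58), which had 2, and Skil in GC tumor 1 (0), which had 1. The GC effect on Itgav differed between TAMs and CD8 T cells by -2.37 on the log2 scale (limma adjusted p = 0.0203).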

How the results depend on the processing

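Of 722 member values recomputed under alternatives, 624 kept direction and side of the threshold, 19 lost the call, 19 gained it and 60 reversed. Itgav in CD8 T cells passed in all 14 alternatives (1.48 to 2.16). Genes called in CD8 T cells numbered 309, against 195 with at least 5 cells per tumor, 604 with at least 20, 129 in CD8 2 alone and 501 with equal weights. In neutrophils 213 became 390 with the mean of logs, and in TAMs 1270 became 670 by edgeR and 735 by DESeq2. Over all CD45+ cells 398 became 610 by edgeR, 1080 by DESeq2, 607 with at least 20 cells and 1022 in myeloid cells alone. Leaving out 1 tumor gave 135 to 604, 105 to 241, 867 to 2117 and 101 to 666 genes in CD8 T cells, neutrophils, TAMs and all CD45+ cells. Lrrc32 in Tregs ran from -2.49 to -1.34. By the mean of logs 6 of 10 leading cell types were kept, and with at least 10 cells per tumor 7.

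Calls were 45.3% higher by limma and 63.2% by edgeR in CD8 T cells (140 higher and 169 lower against 240 and 140). They were 411 higher and 859 lower against 415 and 255 in TAMs, and 151 and 247 against 377 and 233 over all CD45+ cells. In neutrophils they were 92 and 121 against 116 and 87. The median change over all genes was -0.12 in TAMs and -0.11 over all CD45+ cells by limma, and 0.00 and 0.01 by edgeR.

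The following changes (log2 unless on the linear scale, in UMIs per 10000) reversed. In CD8 T cells Smad3 became 0.18 (edgeR), 0.18 (DESeq2), 0.14 (at least 5 cells), 0.071 (at least 20 cells), 0.11 (mean of logs), 0.017 (CD8 1 alone), 0.16 (CD8 2 alone), 0.092 (no macrophage UMIs) and 0.057 (equal weights), Smad7 became -0.039 (no macrophage UMIs), Skil became -0.19 (at least 5 cells), -0.14 (at least 20 cells), -0.21 (CD8 1 alone), -0.12 (CD8 2 alone) and -0.16 (equal weights). Without 1 tumor, Tgfbr2 ran from -0.37 to 0.011, Smad3 ran from -0.28 to 0.071, Smad7 ran from -0.13 to 0.14, Skil ran from -0.14 to 0.38. In neutrophils Tgfbr2 became -0.053 (at least 5 cells), Smad7 became 0.086 (at least 5 cells). Without 1 tumor, Tgfb1 ran from -0.84 to 0.61, Tgfbr2 ran from -0.034 to 0.35, Smad3 ran from -1.53 to 0.36. In TAMs Tgfbr1 became 0.059 (median of ratios), Skil became 0.020 (edgeR), 0.035 (DESeq2) and 0.0087 (at least 5 cells). Without 1 tumor, Tgfb1 ran from -0.52 to 0.035, Itgav ran from -1.23 to 0.31, Tgfbr1 ran from -0.097 to 0.024, Skil ran from -0.52 to 0.054. Over all CD45+ cells Itgav became -1.03 (myeloid cells), Tgfbr1 became -0.34 (edgeR), -0.32 (DESeq2), -0.24 (at least 20 cells), -0.068 (mean of logs), -1.20 (lymphoid cells) and -0.039 (myeloid cells), Smad3 became 0.013 (mean of logs), Smad7 became 0.015 (DESeq2) and 0.0099 (mean of logs), Skil became 0.22 (myeloid cells). Without 1 tumor, Tgfbr1 ran from -0.24 to 0.14, Smad3 ran from -0.29 to 0.18. In Tregs Itgav became 1.48 (linear scale) and 0.37 (at least 3 Tregs), Itgb8 became -0.29 (at least 3 Tregs), Tgfbr1 became -0.47 (at least 3 Tregs), Tgfbr2 became 0.40 (linear scale). Without 1 tumor, Itgav ran from -0.72 to 0.33, Itgb8 ran from -0.37 to 0.55, Tgfbr1 ran from -0.27 to 0.25, Tgfbr2 ran from -1.31 to 0.16. Of the values so reversed other than by leaving out a tumor, 2 passed. They were Tgfbr1 in lymphoid cells (limma adjusted p = 0.0147) and Tgfbr1 with at least 3 Tregs (exact permutation p = 0.0476, the smallest possible from 5 and 2 tumors). The causes were not tested.

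No paired analysis was possible because the hashtag numbers of control and GC tumors only name them. The difference between cell classes kept the tumor as a block, and without it that of Itgav, TAMs minus CD8 T cells, was -2.37 (limma adjusted p = 0.0177). GC cells were few (18 to 111 per tumor), which limits the comparisons within cell types.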

Other observations

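Tgfbr1 in eosinophils was 1.05 UMIs per 10000 in pooled control cells and 9.49 after GC, but 31 of the 38 GC UMIs came from 1 cell. Skil stayed near its control level in eosinophils, the cells with its highest level, at 9.49 and 9.24 UMIs per 10000 (ratio 0.973, 0.676 to 1.36). Smad3 in Monocytes 1 had 203 UMIs in controls and 1 after GC, a ratio of 0.0617 (0.00156 to 0.348).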
